A study of Mus musculus with 12 samples.

Results

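Gene expression in the small intestine after 72 h of fasting was set against that after 24 h, in 6 of the 12 arrays of a fasting study: the 3 arrays labelled 72 h and the 3 labelled 24 h, over all 20280 probes of the array that are not controls. The mice were male FVB mice of 6 weeks. Every array carried Cy3-labelled RNA pooled from the whole small intestines of 2 mice, each pool of different mice, beside a Cy5-labelled common reference pooled from 6 fed mice, and dyes were not swapped. The 24 h mice had been without chow for 24 h and the 72 h mice for 72 h. Both were kept in metabolic cages, and both were killed at the same hour of the morning. An infrared lamp warmed the animals from 24 h of fasting on, so that longer fasting and time under the lamp cannot be told apart. The value of a gene is its log ratio, log2(Cy3/Cy5), the signal of a fasted pool relative to that of the fed reference. As dyes were not swapped, it also holds any difference between the dyes, and 0 need not be the level of fed intestine. The gene Acadvl, for example, had a mean log ratio of 0.55 at 72 h but lay 2.14 above the arrays of fed pools. A difference from fed is therefore taken from those arrays. A difference is the mean log ratio at 72 h minus that at 24 h, with its standard error. A difference is called where the p of limma's moderated test, adjusted by the Benjamini-Hochberg method over all probes, is under 0.05. Cy3 and Cy5 in parentheses are the changes of the normalized log2 intensity of each channel from 24 to 72 h. Because whole intestine was measured, fewer cells of a type and less RNA per cell cannot be told apart.

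The mucosa of the small intestine is renewed continuously by dividing crypt cells, and its enterocytes burn glutamine, glucose and ketone bodies. In fasting, intestine and liver turn to fatty acids: the nuclear receptor PPARα induces the enzymes of β-oxidation and ketone-body synthesis, and pyruvate dehydrogenase kinases spare pyruvate. Glucocorticoids, p53 and NF-κB govern much of the mucosal response to stress. In mice, food deprivation also lowers body temperature and shifts the daily rhythms of peripheral organs.

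Of the 20274 probes that could be tested, 2150 (10.6%) differed between 72 and 24 h, 1191 (5.87%) higher and 959 (4.73%) lower at 72 h. The change reached 2-fold for 374 of the higher and 213 of the lower probes. Per the labelling protocol the same RNA went into the Cy5 channel of all arrays, yet 2790 probes (13.8%) differed in Cy5. The 24 h arrays were stored in another scanner file format than the 72 h arrays, their Cy5 median intensities were 392 to 436 against 124 to 134, and file format and fasting time cannot be told apart in this comparison. The fed arrays have the format of the 72 h arrays, so the difference of 72 h from fed is given beside the main genes. The source label of 1 fed array names fewer mice for its Cy5 reference than the others do, which touches the differences from fed. That comparison shares the 72 h arrays with the present one. Of the 2150 probes, 794 (36.9%) changed more in Cy5 than in Cy3, and 918 (4.53% of those tested) were called in the log ratio and in Cy3 alone with the same direction, 505 higher and 413 lower. The Cy5 change was called for 584 of the 2150. Leaving out 72 h pool 1 lowered the calls from 2150 to 551 and those in both measures from 918 to 205. Omission of any 1 of the other pools left 950 to 1393 calls.

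Taking 1 probe per gene, that with the highest mean intensity, 8001 named genes were tested, of which 4.76% were called higher and 6.80% lower, and 2.77% and 2.94% were called so in both the log ratio and Cy3. The median difference over these genes was -0.10, with a median of 0.015 in Cy3. Replicate pools correlated at r = 0.596 to 0.647 at 24 h and 0.812 to 0.853 at 72 h over all probes. The 72 h pools lay all on 1 side of the 24 h pools for 41.9% of all tested probes. Among the 2150 called probes they did so for 2146.

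The cold-inducible RNA-binding protein gene Cirbp had the largest rise among genes measured well at both times. Its log ratio was -1.19, -1.42 and -1.02 in the 24 h pools and 1.39, 1.32 and 1.27 in the 72 h pools. Every 24 h pool lay below the fed reference and every 72 h pool above it, and the difference of 2.54 ± 0.17 was a 5.81-fold rise (adjusted p = 8.6e-06). Its Cy3 signal rose by 1.87 on the log2 scale while Cy5 changed by -0.67, both called, and 72 h exceeded fed by 1.46 (adjusted p = 2.7e-04). Hnrnpdl, which encodes another RNA-binding protein that acts in RNA processing, had log ratios of -0.32, -0.27 and -0.31 at 24 h and 1.69, 1.44 and 1.65 at 72 h. The pools of a time point lay close together, the rise of 1.89 ± 0.14 was 3.71-fold (adjusted p = 2.1e-05), Cy3 and Cy5 changed by 2.18 and 0.29, and 72 h exceeded fed by 1.26 (adjusted p = 2.2e-04). Both calls held with any 1 of the 6 pools left out.

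The promoter of Cirbp is shown because a short cold response element, TCCCCGCC, is known from its upstream region. The RefSeq table holds 2 start sites for Cirbp, and the window of the upstream one (GRCm38.p6, chr10:80167589-80167888, plus strand, from 250 bases before to 50 after the start site) has the element once, near its distal end, in capitals. The promoter of Nfkbia (chr12:55492598-55492897, minus strand) is shown as that of a gene with well-known κB sites, and its match to the 10-letter κB consensus, close to the start site, is in capitals. Searched on both strands, TCCCCGCC was present in 5.38% of all 32851 promoter windows and the κB consensus in 8.46%. A match is a description of the letters only.
Cirbp: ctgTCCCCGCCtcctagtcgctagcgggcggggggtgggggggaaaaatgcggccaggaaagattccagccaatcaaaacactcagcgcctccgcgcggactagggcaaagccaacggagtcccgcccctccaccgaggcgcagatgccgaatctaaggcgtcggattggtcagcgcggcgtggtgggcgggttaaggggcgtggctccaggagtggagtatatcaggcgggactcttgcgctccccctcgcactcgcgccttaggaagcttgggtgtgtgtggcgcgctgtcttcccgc
Nfkbia: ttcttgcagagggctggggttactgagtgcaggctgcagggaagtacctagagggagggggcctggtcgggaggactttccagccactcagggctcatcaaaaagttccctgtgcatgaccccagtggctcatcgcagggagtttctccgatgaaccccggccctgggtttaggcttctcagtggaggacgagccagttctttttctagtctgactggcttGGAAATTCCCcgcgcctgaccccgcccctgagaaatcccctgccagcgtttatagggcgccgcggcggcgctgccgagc

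Genes of cell death, survival and NF-κB signalling made up another 4 of the 12 largest rises. Pmaip1, which encodes the p53 target and proapoptotic protein Noxa, had log ratios of 0.87, 0.86 and 0.98 at 24 h and 3.12, 2.80 and 2.57 at 72 h. All pools were above the fed reference, the 72 h pools more so, and the rise of 1.93 ± 0.21 was 3.81-fold (adjusted p = 2.9e-04), with 1.76 in Cy3 and -0.16 in Cy5. Pim3, a serine/threonine kinase gene of the PIM family, stood at -0.071, 0.074 and 0.73 at 24 h and at 2.54, 2.43 and 2.03 at 72 h, a difference of 2.09 ± 0.24 (adjusted p = 3.6e-04, Cy3 2.28, Cy5 0.19). Nfkbia, which encodes the NF-κB inhibitor IκBα, was at 0.39, 0.47 and 0.43 at 24 h and at 2.80 and 1.93 in 72 h pools 2 and 3, its spot on the array of 72 h pool 1 having been left out as an outlier. The pools did not overlap, as the choice of the gene required, and the difference was 1.93 ± 0.25 (adjusted p = 8.3e-04, Cy3 2.13, Cy5 0.20). Ikbkg, the gene of the regulatory subunit NEMO of the IκB kinase, had log ratios of 1.02, 0.29 and 0.82 at 24 h and 3.20, 3.34 and 2.75 at 72 h. Its difference was 2.39 ± 0.51 (adjusted p = 0.01, Cy3 2.52, Cy5 0.13). Against fed, 72 h was higher by 2.84 for Pmaip1, 2.49 for Pim3, 2.12 for Nfkbia and 2.50 for Ikbkg, each called. The calls of Pmaip1 and Pim3 held with any 1 pool left out, and that of Ikbkg was lost without 72 h pool 1 (adjusted p = 0.054) and without 24 h pool 2. That of Nfkbia held with any 1 of the 24 h pools left out. Without 72 h pool 2 or 3 Nfkbia had only 1 value at 72 h, and its difference was 1.49 and 2.37.

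**Figure D1:**
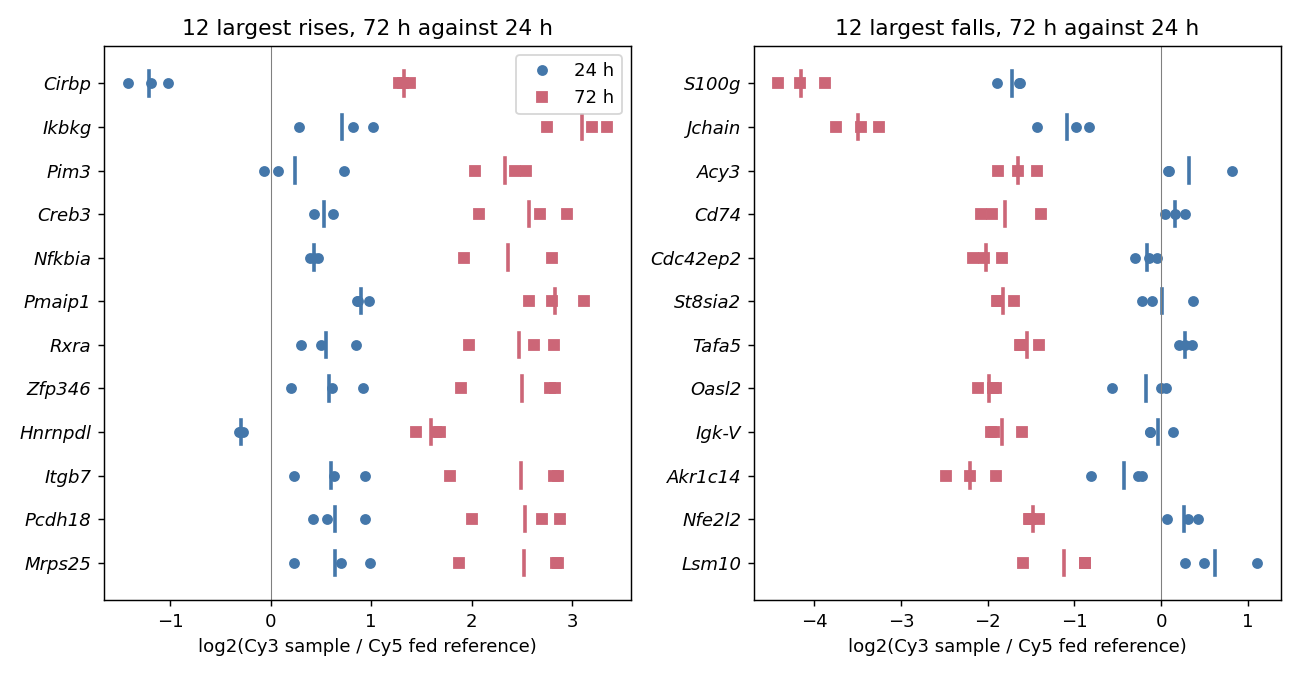
Log ratios, log2(Cy3 sample/Cy5 fed reference), of the 12 genes with the largest rise (left) and the 12 with the largest fall (right) from 24 to 72 h, 1 point per pool of 2 mice (24 h circles, 72 h squares) and a bar at each mean. The 72 h pools lie on 1 side of all 24 h pools in every gene, as the choice of these genes required; Creb3, Rxra, Zfp346, Itgb7, Pcdh18 and Mrps25 show similar values, Creb3 without 24 h pool 3.

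The other 6 of the 12 largest rises had similar values in the 24 h and 72 h pools. Rxra, the retinoid X receptor partner of PPARα, had log ratios of 0.50, 0.30 and 0.85 at 24 h and 2.82, 1.98 and 2.62 at 72 h, a difference of 1.92 ± 0.49 (adjusted p = 0.025, Cy3 1.67, Cy5 -0.25). Creb3, a membrane-bound transcription factor gene, had 0.62 and 0.43 in 24 h pools 1 and 2, pool 3 being left out as an outlier, and 2.94, 2.08 and 2.68 at 72 h, a difference of 2.04 ± 0.51 (adjusted p = 0.024, Cy3 1.71, Cy5 -0.33). In each of these genes 72 h pool 2 was the lowest of its time point and 24 h pool 2 the lowest of its own. Zfp346, a zinc-finger gene, differed by 1.92 ± 0.41 (adjusted p = 0.01, Cy3 1.64, Cy5 -0.28), Itgb7, the integrin β7 of gut-homing lymphocytes, by 1.89 ± 0.43 (adjusted p = 0.013, Cy3 1.42, Cy5 -0.47), Pcdh18, a protocadherin, by 1.89 ± 0.49 (adjusted p = 0.025, Cy3 1.51, Cy5 -0.38), and Mrps25, a mitochondrial ribosomal protein, by 1.88 ± 0.41 (adjusted p = 0.012, Cy3 1.84, Cy5 -0.042). A second probe for Mrps25 gave -0.32 (adjusted p = 0.17) and one for Pcdh18 0.67 (adjusted p = 0.1), neither called. Against fed, 72 h was higher by 2.41 for Rxra, 2.12 for Creb3, 2.20 for Zfp346, 2.55 for Itgb7, 2.28 for Pcdh18 and 2.59 for Mrps25, each called. All 6 calls were lost when 72 h pool 1 or 24 h pool 2 was left out, and that of Zfp346 without these 2 alone. Those of Rxra and Pcdh18 were lost without any 1 of 5 pools, that of Creb3 without any 1 of 4. Those of Itgb7 and Mrps25 were lost without any 1 of 3. The adjusted p reached 0.12 for Rxra, Creb3 and Pcdh18.

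This profile was shared more widely. Of 20213 probes with values on enough arrays, 79, Rxra included, followed the log ratios of Rxra over the 12 arrays with a correlation above 0.95. Of these 59 were called higher, and they include 54 of the 374 probes called at least 2-fold higher at 72 h, and none called lower. The deviations of these probes from their time-point means also moved with those of Rxra, with a median correlation of 0.942 (0.774 to 0.99) against -0.041 over all probes. Choosing probes by their correlation over the same 12 arrays favours both such deviations and calls in the direction of Rxra. Neither is therefore separate evidence of a shared profile. Their mean log ratio was 0.574, 0.283 and 0.707 in the 24 h pools and 2.38, 1.55 and 2.29 in the 72 h pools. Within the fed and 12 h pools, where it ran from -0.626 to 1.29, the mean differed more than it did within 24 h or 72 h. The 79 probes include 45 genes with a symbol, of varied kinds. Among them were Neurog1 and Gbx2, transcription factors of the developing nervous system, the potassium channel gene Kcnh1 and the steroidogenic factor gene Nr5a1. Axin1, Htt, Vps29 and Uba3 were others. All of these are named here after their values were seen. At the same cutoff 54 to 108 other probes followed each of the 6 genes. For the rest of the 12 largest rises and the 12 largest falls the number ran from 1, for Cirbp and Lsm10, to 28 for Cd74, with 26 for Igk-V and 21 for St8sia2. These correlations rest on 12 arrays, which the probes share, and their cause was not tested. Atm, Akt1, Traf3 and Lipc, which appear in the lists below, belong to this set, and without the set 2079 probes were called.

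**Figure D2:**
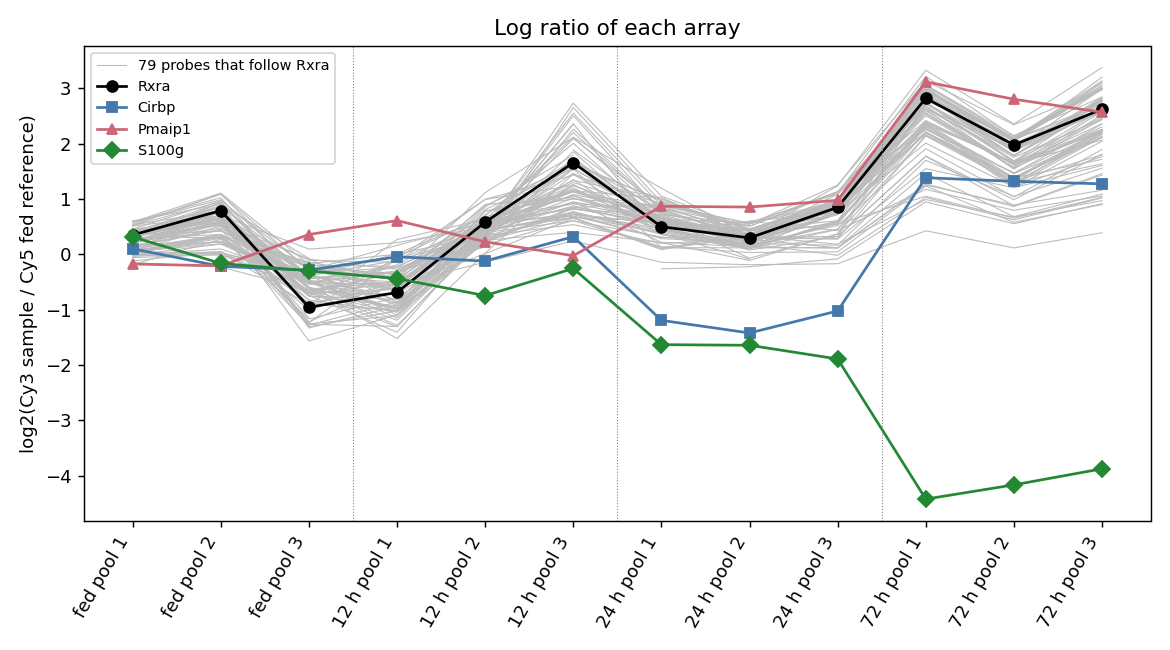
Log ratio on each of the 12 arrays (dotted lines separate the fed, 12 h, 24 h and 72 h pools; lines join arrays only to show each profile) of the 79 probes that follow Rxra with a correlation above 0.95, of Rxra itself and of Cirbp, Pmaip1 and S100g. The 79 probes move together within each time point, which their choice by correlation favours. For genes not chosen so, the correlation with Rxra within time points was 0.589 for Cirbp, -0.719 for Pmaip1 and 0.213 for S100g.

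The largest fall was that of S100g, which encodes the vitamin D-dependent calcium-binding protein calbindin-D9k of the enterocyte. S100g had log ratios of -1.63, -1.64 and -1.89 in the 24 h pools and -4.42, -4.16 and -3.87 in the 72 h pools. Already low at 24 h, it fell by 2.43 ± 0.20 on the log2 scale, 5.4-fold (adjusted p = 4.3e-05), its Cy3 signal changed by -2.58 against -0.15 in Cy5, and 72 h lay -4.11 from fed. Jchain, the joining chain that links dimers of the immunoglobulin A secreted by plasma cells, had -1.43, -0.98 and -0.83 at 24 h and -3.76, -3.26 and -3.46 at 72 h. It differed by -2.41 ± 0.24 (adjusted p = 2.7e-04, Cy3 -2.37, Cy5 0.043), and by -3.22 from fed. Immunoglobulin κ followed: the probe named Igk-V, for a κ variable region with many close relatives whose RNA may bind to it, stood at -0.12, 0.14 and -0.12 at 24 h and at -1.93, -1.61 and -1.97 at 72 h, a difference of -1.80 ± 0.32 (adjusted p = 0.0041, Cy3 -1.45, Cy5 0.35). The invariant chain Cd74, which chaperones MHC class II molecules, had log ratios of 0.045, 0.16 and 0.28 at 24 h and -2.08, -1.38 and -1.95 at 72 h, a difference of -1.97 ± 0.34 (adjusted p = 0.0039, Cy3 -1.92, Cy5 0.05). None of the 72 h pools reached the range of the 24 h pools in these 4 genes, as their choice required, and their calls held with any 1 pool left out.

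Among the remaining large falls were enzymes of detoxification. Acy3, an aminoacylase that acts on mercapturates, had log ratios of 0.81, 0.075 and 0.086 at 24 h and -1.66, -1.44 and -1.88 at 72 h, a difference of -1.98 ± 0.27 (adjusted p = 0.0011, Cy3 -2.56, Cy5 -0.58). Akr1c14, a hydroxysteroid dehydrogenase of the aldo-keto reductases, stood at -0.81, -0.26 and -0.23 and then at -2.21, -2.48 and -1.91, a difference of -1.77 ± 0.26 (adjusted p = 0.0014, Cy3 -2.02, Cy5 -0.26). Nfe2l2, the transcription factor NRF2 that controls many antioxidant genes, was at 0.30, 0.42 and 0.068 at 24 h and at -1.53, -1.41 and -1.51 at 72 h. It differed by -1.75 ± 0.33 (adjusted p = 0.0053, Cy3 -1.22, Cy5 0.53), and its difference from fed was -0.98 (adjusted p = 0.069). The interferon-induced gene Oasl2 differed by -1.81 ± 0.32 (adjusted p = 0.0039, Cy3 -1.07, Cy5 0.75), Cdc42ep2, an effector of the small GTPase CDC42, by -1.85 ± 0.30 (adjusted p = 0.0024, Cy3 -1.68, Cy5 0.17), and Lsm10, a component of the U7 particle that processes histone mRNA, by -1.74 ± 0.25 (adjusted p = 0.0014, Cy3 -2.45, Cy5 -0.71). St8sia2, a sialyltransferase, differed by -1.84 ± 0.31 (adjusted p = 0.0032, Cy3 -1.32, Cy5 0.52) and Tafa5, a secreted protein, by -1.82 ± 0.21 (adjusted p = 3.3e-04, Cy3 -1.30, Cy5 0.52), while a second probe gave -0.0092 for St8sia2 and 0.46 for Tafa5, neither called. Against fed, 72 h differed by -1.55 for Acy3, -2.32 for Akr1c14, -1.20 for Cd74, -1.27 for Igk-V, -1.17 for Oasl2, -1.53 for Cdc42ep2, -1.04 for Lsm10 and -1.85 for Tafa5, each called, and by -0.89 for St8sia2, which did not pass (adjusted p = 0.083). All 8 calls of this group held with any 1 pool left out. In Cy5, Acy3, Oasl2 and Lsm10 were called as well. Dynll1, a dynein light chain gene, had -0.84, -0.52 and -0.19 at 24 h and -2.29, -1.85 and -2.32 at 72 h, a difference of -1.64 ± 0.26 (adjusted p = 0.0024, Cy3 -1.54, Cy5 0.10).

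**Figure D3:**
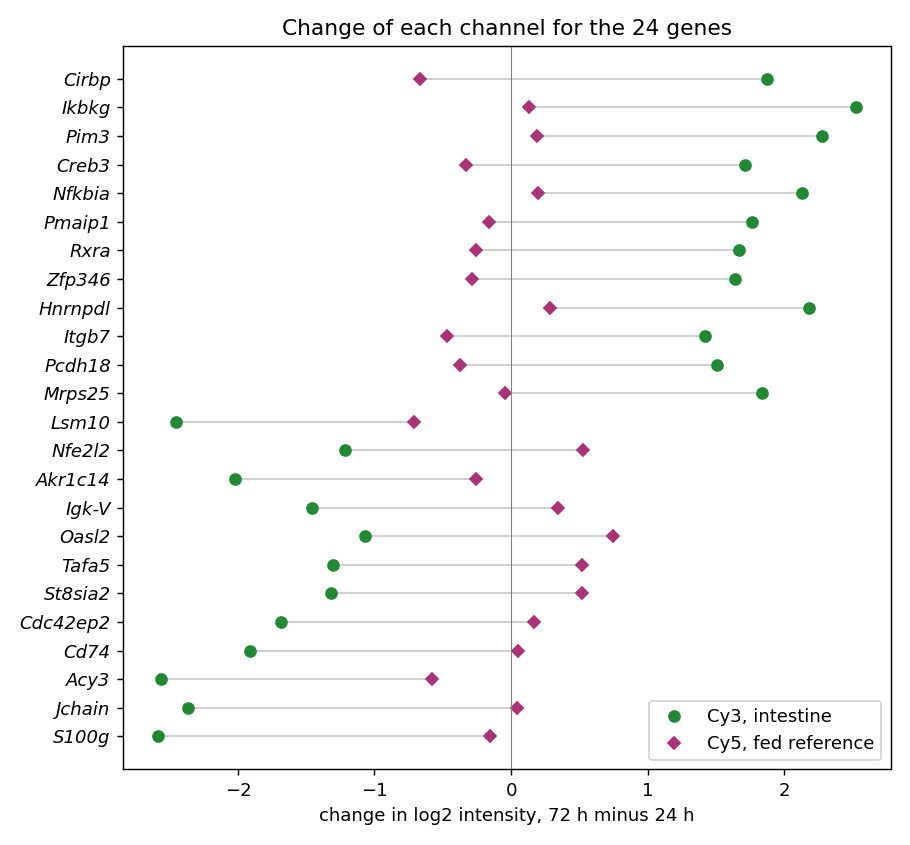
Change in normalized log2 intensity from 24 to 72 h of the intestinal RNA (Cy3, circles) and of the common fed reference (Cy5, diamonds) for the 12 largest rises and 12 largest falls, ordered by the log ratio difference. In every gene the Cy3 change is larger in size, as the choice required. The Cy5 change reaches 0.75 for Oasl2 and -0.71 for Lsm10, and is called for these and for Cirbp and Acy3.

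Genes of fatty-acid oxidation and ketone-body synthesis were lower where they differed. Of 25 measured members none was called higher and 5 lower, where 4.76% and 6.80% of all genes were, and the median difference was -0.25 against -0.10 over all genes. Cpt2, the inner-membrane enzyme that reloads long-chain fatty acids onto coenzyme A, had log ratios of -0.074, 0.017 and -0.16 at 24 h and -1.88, -1.28 and -1.83 at 72 h. It stood close to the fed reference in all 24 h pools and fell by 1.59 ± 0.21 on the log2 scale (3.01-fold, adjusted p = 9.6e-04), with -2.01 in Cy3 and -0.42 in Cy5, and 72 h differed from fed by -1.84 (adjusted p = 2.6e-04). Hadhb, the thiolase subunit of the trifunctional protein, was at 0.28, 0.016 and -0.28 and then at -0.90, -0.54 and -1.01, a difference of -0.82 ± 0.19 (adjusted p = 0.014, Cy3 -0.69, Cy5 0.13). Eci1, an enoyl-CoA isomerase for unsaturated fatty acids, was at -0.045, 0.23 and 0.17 at 24 h and at -0.71, -0.56 and -0.72 at 72 h, a difference of -0.78 ± 0.17 (adjusted p = 0.013, Cy3 -0.89, Cy5 -0.10). Acadl, the long-chain acyl-CoA dehydrogenase, differed by -0.78 ± 0.22 (adjusted p = 0.038, Cy3 -0.91, Cy5 -0.12) and the cytosolic thioesterase Acot1 by -0.54 ± 0.16 (adjusted p = 0.039, Cy3 0.13, Cy5 0.68). The Cy3 signal of Acot1 was not called, while its Cy5 signal was. The differences of Hadha, the other subunit of the trifunctional protein, of Acadvl, the very-long-chain dehydrogenase, and of the receptor gene Ppara did not pass, at -0.46 for Hadha (Cy3 -0.40, Cy5 0.062), -0.14 for Acadvl without 72 h pool 1, an outlier spot (Cy3 -0.20, Cy5 -0.059), and -0.51 for Ppara (Cy3 -0.10, Cy5 0.41). Only the call of Cpt2 held with any 1 pool left out: that of Hadhb was lost without 72 h pool 1 (adjusted p = 0.074), 72 h pool 3, 24 h pool 1 or 24 h pool 2, that of Eci1 without 72 h pools 1 or 3 or 24 h pool 2 (adjusted p up to 0.066), and those of Acadl (adjusted p up to 0.14) and Acot1 (adjusted p up to 0.15) whichever pool was left out.

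Pyruvate and glucose genes split. Pdk4, the kinase that inactivates pyruvate dehydrogenase, had log ratios of 1.13, 1.56 and 1.56 at 24 h and 2.37, 2.18 and 1.92 at 72 h. All pools were above the fed reference, and the further rise from 24 to 72 h was 0.74 ± 0.18 (adjusted p = 0.017, Cy3 1.94, Cy5 1.20). Pck1, the cytosolic phosphoenolpyruvate carboxykinase of gluconeogenesis, had 1.73, 1.71 and 1.66 at 24 h and 2.72, 2.24 and 1.94 at 72 h. Its 72 h pools were all higher, but the difference of 0.60 ± 0.25 (adjusted p = 0.14, Cy3 1.83, Cy5 1.23) did not pass. In both genes Cy5 was called as well as Cy3. The difference of 72 h from fed was 2.35 for Pdk4 and 2.47 for Pck1, both called. In this list of 13 measured genes 1 was called higher and 3 lower, where 4.76% and 6.80% of all genes were. The mitochondrial carboxykinase Pck2 differed by -0.92 ± 0.17 (adjusted p = 0.005, Cy3 -0.84, Cy5 0.076), Pdhb, a subunit of pyruvate dehydrogenase, by -0.83 ± 0.22 (adjusted p = 0.03, Cy3 -0.67, Cy5 0.17), and Fbp2, the muscle-type fructose bisphosphatase, by -0.72 ± 0.19 (adjusted p = 0.03, Cy3 -0.56, Cy5 0.16). The call of Pck2 held with any 1 pool left out, that of Pdk4 was lost without 72 h pool 1 (adjusted p = 0.1), 72 h pool 2 or 24 h pool 1, that of Fbp2 without any 1 of 4 pools and that of Pdhb whichever pool was left out (adjusted p up to 0.12 and 0.12).

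Genes of glycolysis were lower where they differed. Of 16 measured genes 7 were called lower, 3 of them also in Cy3, and none higher, and the median difference was -0.77. Among all genes 6.80% were called lower and 2.94% also in Cy3. Triose phosphate isomerase, Tpi1, had log ratios of -0.053, 0 and 0.089 at 24 h and -1.46, -0.86 and -1.34 at 72 h, a difference of -1.23 ± 0.27 (adjusted p = 0.013, Cy3 -1.74, Cy5 -0.51). Pkm, the pyruvate kinase of non-hepatic tissues, was at 0.035, 0.41 and 0.25 and then at -1.03, -0.68 and -0.77, a difference of -1.06 ± 0.18 (adjusted p = 0.0035, Cy3 -0.71, Cy5 0.35). Ldha, the A subunit of lactate dehydrogenase, had -0.75, -0.46 and -0.41 at 24 h and -1.72, -0.96 and -1.78 at 72 h, a difference of -0.95 ± 0.21 (adjusted p = 0.014, Cy3 -0.53, Cy5 0.42). A second Ldha probe gave -1.38 with an adjusted p of 0.55. The aldolase gene Aldoa differed by -1.01 ± 0.29 (adjusted p = 0.039, Cy3 -0.90, Cy5 0.12), the phosphoglycerate mutase gene Pgam1 by -0.95 ± 0.24 (adjusted p = 0.024, Cy3 -1.21, Cy5 -0.26) and the phosphofructokinase gene Pfkp by -1.11 ± 0.31 (adjusted p = 0.037, Cy3 -0.48, Cy5 0.63), Pgam1 without 72 h pool 3 and Pfkp without 72 h pool 1, outlier spots. For Pfkp 2 other probes gave 0.17 and -0.097, not called. Pfkm, another phosphofructokinase, differed by -0.60 ± 0.17 (adjusted p = 0.038, Cy3 -0.44, Cy5 0.16). Of these 7 genes Tpi1, Aldoa and Pgam1 were also called in Cy3. Against fed, 72 h differed by -1.27 for Tpi1, -0.90 for Pkm and -1.30 for Ldha, each called. The call of Pkm held with any 1 pool left out, that of Tpi1 was lost without 72 h pool 1 (adjusted p = 0.075) or 72 h pool 3, that of Ldha without any 1 of 4 pools (adjusted p up to 0.083), that of Pgam1 without any 1 of 4 (adjusted p up to 0.23), that of Aldoa without any 1 of 5 (adjusted p up to 0.17), that of Pfkm without any 1 of 5 (adjusted p up to 0.14) and that of Pfkp whichever was left out (adjusted p up to 0.2). Without 72 h pool 1, 1 gene of the list was called.

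The citric-acid cycle and the respiratory chain lay below the median of all genes. All 20 measured genes of the citric-acid cycle had a negative difference, with a median of -0.36, but a median of 0.036 in Cy3 and 0.39 in Cy5. Ogdh, the E1 subunit of the oxoglutarate dehydrogenase complex, was the 1 called, with 0.46, 0.58 and 0.30 at 24 h, -1.43, -0.68 and -1.20 at 72 h and a difference of -1.55 ± 0.44 (adjusted p = 0.037, Cy3 -1.10, Cy5 0.44), lost without any 1 of 5 pools (adjusted p up to 0.15). From the fed arrays, Ogdh differed by 0.91 at 24 h (adjusted p = 0.197) and by -0.64 at 72 h (adjusted p = 0.398), neither called. Another Ogdh probe gave -0.99 from 24 to 72 h (adjusted p = 0.39). Sdha, the catalytic subunit of succinate dehydrogenase, differed by -0.61 ± 0.31 (adjusted p = 0.23, Cy3 -0.35, Cy5 0.26). Of 57 measured genes of the respiratory chain and ATP synthase, 6 were called lower, 5 of them also in Cy3, and none higher. Among all genes 6.80% were called lower and 2.94% also in Cy3. The median of the list was -0.40 (-0.47 in Cy3 and -0.10 in Cy5). The complex I subunit Ndufc1 had log ratios of -0.93, -0.54 and -0.72 at 24 h and -1.74, -1.40 and -1.73 at 72 h, a difference of -0.90 ± 0.22 (adjusted p = 0.019, Cy3 -1.03, Cy5 -0.14). Cytochrome c, Cycs, was at -1.29, -0.95 and -0.65 and then at -1.79, -1.73 and -1.86, a difference of -0.83 ± 0.20 (adjusted p = 0.02, Cy3 -0.80, Cy5 0.027). The ATP synthase subunit Atp5j differed by -0.87 ± 0.20 (adjusted p = 0.013, Cy3 -0.96, Cy5 -0.093), Atp5o by -0.68 ± 0.20 (adjusted p = 0.044, Cy3 -0.89, Cy5 -0.21) and Atp5h by -0.60 ± 0.18 (adjusted p = 0.048, Cy3 -0.62, Cy5 -0.014), and Atpif1, the inhibitor of the same enzyme, by -0.67 ± 0.18 (adjusted p = 0.034, Cy3 -0.83, Cy5 -0.17). In Cy3 all but Atp5h were called. Each of these 6 calls was lost without 72 h pool 1, 72 h pool 3 or 24 h pool 2, and median centring of the arrays left none called in the list.

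**Figure D4:**
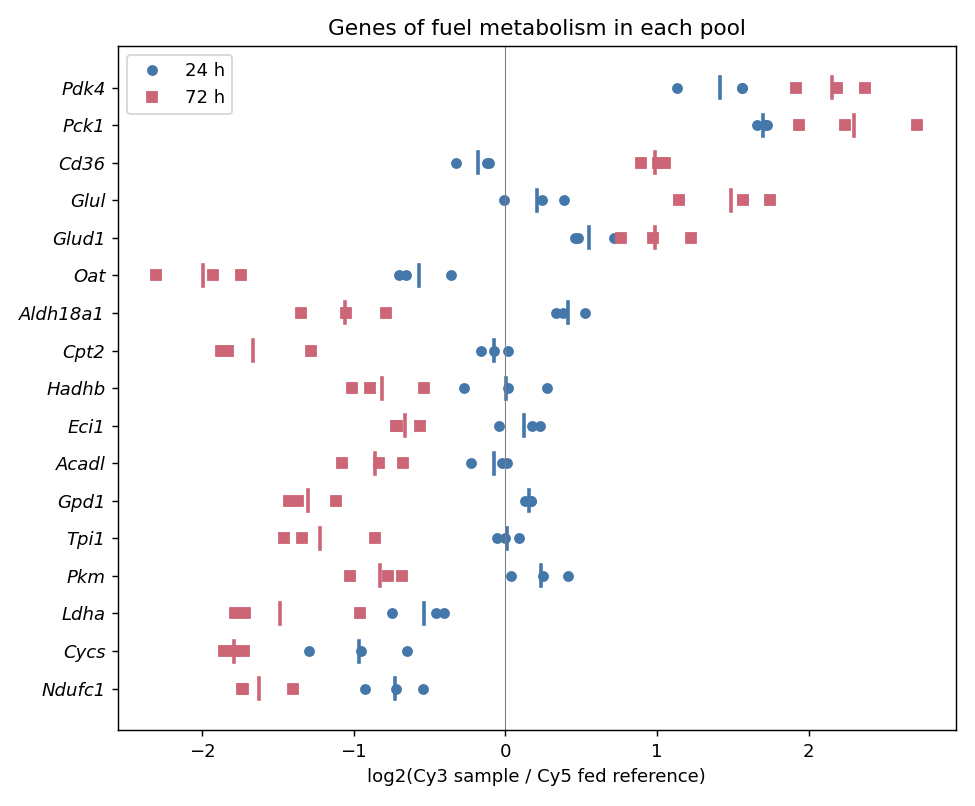
Log ratios of genes of fuel metabolism in the 3 pools of 24 h (circles) and the 3 of 72 h (squares), with a bar at each mean. At 0 the Cy3 signal equals that of the fed reference in Cy5, which need not be the level of the fed arrays. Pdk4 and Pck1 lie highest at 72 h, and Oat and Cycs lowest.

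Amino-acid genes moved in both directions, 3 of 28 measured members higher and 4 lower, where 4.76% and 6.80% of all genes were. Glul, glutamine synthetase, had log ratios of 0.24, -0.01 and 0.39 at 24 h and 1.56, 1.74 and 1.15 at 72 h. The 72 h pools were all higher, by 1.28 ± 0.19 or 2.43-fold (adjusted p = 0.0015), with 0.74 in Cy3 and -0.54 in Cy5, and 72 h exceeded fed by 1.57. Odc1, ornithine decarboxylase of polyamine synthesis, differed by 1.06 ± 0.24 (adjusted p = 0.013, Cy3 0.44, Cy5 -0.62), and Prodh, proline dehydrogenase, by 0.56 ± 0.17 (adjusted p = 0.046, Cy3 0.76, Cy5 0.20). For Odc1 the Cy5 signal was called and the Cy3 signal was not. Oat, the ornithine aminotransferase that joins glutamate and ornithine, had -0.70, -0.36 and -0.65 at 24 h and -2.30, -1.74 and -1.93 at 72 h, a difference of -1.42 ± 0.21 (adjusted p = 0.0019, Cy3 -1.25, Cy5 0.17). Aldh18a1, the first enzyme from glutamate to proline and ornithine, was at 0.33, 0.38 and 0.53 and then at -1.05, -0.79 and -1.34, a difference of -1.47 ± 0.34 (adjusted p = 0.016, Cy3 -0.88, Cy5 0.59). From the fed arrays, Aldh18a1 differed by 1.25 at 24 h, called (adjusted p = 0.036), and by -0.23 at 72 h, not called (adjusted p = 0.74). Hibadh of valine breakdown differed by -0.81 ± 0.20 (adjusted p = 0.02, Cy3 -0.83, Cy5 -0.024) and Cbs of transsulfuration by -0.72 ± 0.16 (adjusted p = 0.013, Cy3 -0.25, Cy5 0.47). The glutamate dehydrogenase gene Glud1 (0.44, Cy3 0.53, Cy5 0.093), the asparagine synthetase gene Asns (-0.57, Cy3 -0.16, Cy5 0.41) and Gclc of glutathione synthesis (0.38, Cy3 0.97, Cy5 0.60) did not pass. The calls of Glul and Oat held with any 1 pool left out, and those of Odc1 (adjusted p up to 0.085), Aldh18a1 (up to 0.07), Hibadh (up to 0.11) and Cbs (up to 0.077) were lost without 72 h pool 1, among other pools, and that of Prodh whichever pool was left out (up to 0.16).

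In the list of brush-border digestion and nutrient uptake, 6 of 27 measured genes were lower and 1 higher, where 6.80% and 4.76% of all genes were. Its median was -0.47. The list also holds enterocyte genes of other sites and roles, as described for each below. Beside S100g, the phosphate transporter Slc34a2 had log ratios of 0.99, 1.26 and 0.83 at 24 h and -1.09, -0.034 and -0.30 at 72 h, a difference of -1.50 ± 0.24 (adjusted p = 0.0028, Cy3 -1.34, Cy5 0.16). All 24 h pools were above the fed reference and all 72 h pools below it. The difference of 72 h from the fed arrays was -0.55 and did not pass (adjusted p = 0.17). A second, dimmer probe gave -0.18 from 24 to 72 h (adjusted p = 0.71). Slc40a1, ferroportin, which exports iron from the enterocyte, was at -0.91, -0.41 and -0.68 and then at -2.19, -2.08 and -1.91, a difference of -1.39 ± 0.20 (adjusted p = 0.0016, Cy3 -0.80, Cy5 0.59). Both its channels were called. Slc2a2, the basolateral sugar transporter GLUT2, had -0.15, 0.39 and -0.094 at 24 h and -1.01, -1.0 and -0.65 at 72 h, a difference of -0.94 ± 0.20 (adjusted p = 0.012, Cy3 -1.05, Cy5 -0.11). Lct, lactase, differed by -0.87 (Cy3 -0.43, Cy5 0.43), with 72 h pool 2 as its only 72 h pool, since the other spots were outliers. Its spread was taken from the other groups, so its call, 1 of the 6, assumes that this pool varies like them. Vil1, the actin bundler villin of the microvilli, differed by -0.73 ± 0.15 (adjusted p = 0.0078, Cy3 -0.36, Cy5 0.37). The glutamate transporter Slc1a1 was the 1 called higher, by 0.66 ± 0.20 (adjusted p = 0.046, Cy3 0.57, Cy5 -0.089). The calls of Slc34a2 and Slc40a1 held with any 1 pool left out, and those of Slc2a2 (adjusted p = 0.067) and Vil1 (adjusted p = 0.051) were lost without 72 h pool 1, that of Slc2a2 also without 24 h pool 2. That of Slc1a1 was lost without any 1 of 5 pools (adjusted p up to 0.16), and that of Lct without any 1 of the 5 whose omission left values at both times.

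In the list of lipid absorption and lipoproteins, 2 of 29 measured genes were higher and 3 lower, where 4.76% and 6.80% of all genes were. Gpd1, glycerol-3-phosphate dehydrogenase, which supplies the backbone of triglycerides, had log ratios of 0.13, 0.17 and 0.17 at 24 h and -1.43, -1.11 and -1.37 at 72 h, a difference of -1.46 ± 0.16 (adjusted p = 3.3e-04, Cy3 -1.43, Cy5 0.027). The 72 h pools all lay below the fed reference and the 24 h pools above it. Against the fed arrays, 72 h differed by -1.33, called, and 24 h by 0.13, not called (adjusted p = 0.65). Gpd2, its mitochondrial counterpart, differed by -0.98 ± 0.22 (adjusted p = 0.014, Cy3 -0.53, Cy5 0.45), and Mgll, monoglyceride lipase, by -1.05 ± 0.21 (adjusted p = 0.007, Cy3 -0.71, Cy5 0.34). Cd36, a fatty-acid translocase, had -0.11, -0.12 and -0.33 at 24 h and 1.05, 1.01 and 0.89 at 72 h, a difference of 1.17 ± 0.18 (adjusted p = 0.0028, Cy3 1.68, Cy5 0.51). Lipc, hepatic lipase, differed by 1.37 ± 0.37 (adjusted p = 0.032, Cy3 1.11, Cy5 -0.27) and follows the profile of Rxra described above, its call being lost without any 1 of 5 pools (adjusted p up to 0.15). The desaturase gene Scd1 did not pass (-0.60 ± 0.28, adjusted p = 0.19, Cy3 -0.64, Cy5 -0.037). Of the 22 cholesterol synthesis genes limma called none, while 8 had an unadjusted p under 0.05, 7 of them lower, and the median was -0.28, with -0.033 in Cy3 and 0.23 in Cy5. Insig1, a sterol sensor, gave 0.10 ± 0.21 (adjusted p = 0.81, Cy3 -0.43, Cy5 -0.53), Dhcr7, the last reductase of the pathway, -0.52 ± 0.17 (adjusted p = 0.071, Cy3 -0.61, Cy5 -0.10), and Nsdhl, a sterol dehydrogenase, -0.78 ± 0.31 (adjusted p = 0.12, Cy3 -0.41, Cy5 0.38). For Nsdhl a dimmer probe was called lower, at -0.56 (adjusted p = 0.041). The calls of Gpd1, Cd36 and Mgll held with any 1 pool left out, and that of Gpd2 was lost without 24 h pool 2 (adjusted p = 0.066), 72 h pool 1 or 72 h pool 2.

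Of 67 measured cell cycle and replication genes 9 were called lower and 2 higher, with a median of -0.26, and 2 of the 9 and 1 of the 2 were also called in Cy3. Among all genes 6.80% were called lower and 4.76% higher, and 2.94% and 2.77% also in Cy3. The median change of the list was -0.068 in Cy3 and 0.18 in Cy5. Plk1, the mitotic polo-like kinase, had log ratios of 0.28, 0.14 and 0.12 at 24 h and -1.09, -0.94 and -1.06 at 72 h, a difference of -1.21 ± 0.22 (adjusted p = 0.0048, Cy3 -1.70, Cy5 -0.49). A second Plk1 probe gave -0.27 (adjusted p = 0.29). Ccng2, an atypical cyclin linked to arrest, was at -0.83, -0.64 and -0.90 and then at -1.66, -1.92 and -1.73, a difference of -0.98 ± 0.15 (adjusted p = 0.0017, Cy3 -0.83, Cy5 0.15), and Skp2, which targets the inhibitor p27 for degradation, differed by -0.94 ± 0.17 (adjusted p = 0.0053, Cy3 -0.56, Cy5 0.37). Ccnd1, cyclin D1, differed by -0.85 ± 0.20 (adjusted p = 0.017, Cy3 -0.67, Cy5 0.17), with a second probe at -0.062. The other 5 called lower, E2f3, Cdc45, Rbl1, Aurkb and Bub1b, differed by -0.65, -0.63, -0.60, -0.53 and -0.49, with Cy3 changes of -0.029, -0.063, -0.22, -0.54 and -0.22 and Cy5 changes of 0.63, 0.57, 0.39, -0.014 and 0.26. Cdkn1a, the p21 inhibitor of cyclin-dependent kinases and a p53 target, had 0.14, 0.32 and 0.28 at 24 h and 1.59, 1.60 and 0.74 at 72 h. Its 72 h pools were all higher, with a difference of 1.07 ± 0.26 (adjusted p = 0.018, Cy3 1.85, Cy5 0.78). Atm, the DNA-damage kinase, differed by 1.96 ± 0.53 (adjusted p = 0.033, Cy3 1.27, Cy5 -0.70) with the profile shared with Rxra. The replication clamp Pcna (-0.48, Cy3 -0.44, Cy5 0.039), the inhibitor Cdkn2b (-0.20, Cy3 -0.24, Cy5 -0.037) and the kinase Gsk3b (0.38, Cy3 0.47, Cy5 0.084) did not pass. The calls of Plk1, Ccng2 and Skp2 held with any 1 pool left out, and those of Ccnd1 (adjusted p up to 0.088), Cdkn1a (up to 0.1) and Atm (up to 0.13) were lost without any 1 of 3, 5 and 5 pools, 72 h pool 1 among them. E2f3 lost its call without any 1 of 4 pools (adjusted p up to 0.13), and Cdc45, Rbl1, Aurkb and Bub1b theirs whichever pool was left out (adjusted p up to 0.13, 0.15, 0.18 and 0.15).

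Among 32 measured apoptosis regulators 5 were higher and 3 lower, where 4.76% and 6.80% of all genes were. Apart from Pmaip1, Bok, a proapoptotic BCL2 relative, had log ratios of -0.40, -0.30 and 0.005 at 24 h and 1.31, 1.68 and 1.15 at 72 h, a difference of 1.61 ± 0.21 (adjusted p = 6.8e-04, Cy3 1.73, Cy5 0.12). Mcl1, an antiapoptotic relative that Noxa binds, was at -0.50, -0.35 and -0.61 at 24 h and 0.68, 0.78 and 0.88 at 72 h, a difference of 1.26 ± 0.14 (adjusted p = 3.6e-04, Cy3 1.19, Cy5 -0.073). Another Mcl1 probe gave -0.56 (adjusted p = 0.06), so that the probes of Mcl1 differ in direction. Birc2, an inhibitor of apoptosis, differed by 0.65 ± 0.15 (adjusted p = 0.017, Cy3 0.50, Cy5 -0.15) and Akt2, a survival kinase, by 0.55 ± 0.16 (adjusted p = 0.04, Cy3 0.60, Cy5 0.056). The caspase genes Casp1 and Casp6 differed by -0.99 ± 0.23 (adjusted p = 0.018, Cy3 -0.94, Cy5 0.058) and -0.94 ± 0.19 (adjusted p = 0.0075, Cy3 -0.89, Cy5 0.056), Ripk1 of death-receptor signalling differed by -0.63 ± 0.18 (adjusted p = 0.038, Cy3 -0.81, Cy5 -0.18), and Bcl2 (0.46, Cy3 0.93, Cy5 0.47) and Bad (-0.19, Cy3 -0.036, Cy5 0.16) did not pass. A second probe of Bad was called lower, at -0.89 (adjusted p = 0.028). Akt1 had a difference of 1.32 ± 0.42 (adjusted p = 0.061, Cy3 2.20, Cy5 0.88) with the profile of Rxra. The calls of Bok and Mcl1 held with any 1 pool left out, and those of Casp6 (adjusted p = 0.054), Casp1 (0.1) and Birc2 (0.097) were lost without 72 h pool 1, of Casp1 also without 72 h pool 3 or 24 h pool 2 and of Birc2 also without 24 h pool 3. Akt2 and Ripk1 lost theirs without any 1 of 5 pools (adjusted p up to 0.16 and 0.15).

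The list of p53 and stress-response genes had the most rises: 8 of 34 measured members were higher and 2 lower, where 4.76% and 6.80% of all genes were. The median was 0.28, above that of all genes. Ddit4, which encodes the mTORC1 inhibitor REDD1 and answers to glucocorticoids, hypoxia and energy stress, had log ratios of 0.48, 0.87 and 0.67 at 24 h and 2.74, 2.69 and 1.98 at 72 h, a difference of 1.80 ± 0.25 (adjusted p = 0.0013, Cy3 2.59, Cy5 0.80, both called). Klf6, a zinc-finger factor of the immediate-early kind, was at 0.13, 0.23 and 0.018 and then at 1.50, 1.30 and 1.52, a difference of 1.31 ± 0.15 (adjusted p = 6.0e-04, Cy3 1.96, Cy5 0.64), while 2 dimmer Klf6 probes gave -0.26 and 0.03, not called. Dusp1, a phosphatase of MAP kinases, had 0.66, 0.27 and 0.83 at 24 h and 2.74, 2.00 and 2.60 at 72 h, a difference of 1.86 ± 0.38 (adjusted p = 0.0077, Cy3 1.49, Cy5 -0.37), and correlated with Rxra at 0.944. Ier2, an immediate-early gene, differed by 0.96 ± 0.18 (adjusted p = 0.0064, Cy3 0.87, Cy5 -0.088), and Junb (0.92, Cy3 0.95, Cy5 0.035), Egr1 (0.90, Cy3 1.64, Cy5 0.74), Jun (0.63, Cy3 0.67, Cy5 0.039) and Trp53inp1 (0.65, Cy3 0.78, Cy5 0.12) were the others called higher. Tsc22d3, the glucocorticoid-induced leucine zipper, went the other way, from 1.57, 1.73 and 1.61 at 24 h to 0.68, 0.67 and 0.22 at 72 h. Its difference was -1.12 ± 0.26 (adjusted p = 0.015, Cy3 -0.45, Cy5 0.67), and 72 h was 0.51 from fed (adjusted p = 0.23). The Cy3 signal of Tsc22d3 was not called, while its Cy5 signal was. Myc, the growth-promoting transcription factor, differed by -0.94 ± 0.23 (adjusted p = 0.019, Cy3 -0.67, Cy5 0.26). The calls of Ddit4, Klf6, Ier2 and Junb held with any 1 pool left out, and those of Dusp1 (adjusted p = 0.052), Tsc22d3 (up to 0.07) and Myc (up to 0.11) were lost without 72 h pool 1, for Dusp1 without that pool alone. Egr1 lost its call without 72 h pool 2 (adjusted p = 0.055), Jun without any 1 of 5 pools (up to 0.12) and Trp53inp1 whichever pool was left out (up to 0.15).

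The NF-κB list had 5 of 23 measured genes higher and 2 lower, where 4.76% and 6.80% of all genes were, and 16 were not called. Nfkbia and Ikbkg are given above, and Nfkbie, a further IκB, differed by 0.79 ± 0.22 (adjusted p = 0.036, Cy3 0.59, Cy5 -0.20). Traf3, a receptor adaptor, differed by 1.57 ± 0.36 (adjusted p = 0.015, Cy3 1.28, Cy5 -0.30) with the profile of Rxra, and Tirap, a Toll-like receptor adaptor, by 0.71 ± 0.21 (adjusted p = 0.044, Cy3 0.77, Cy5 0.052). The 2 called lower encode DNA-binding subunits. Nfkb1 had log ratios of -0.23, -0.035 and -0.26 at 24 h and -1.21, -1.01 and -0.94 at 72 h, a difference of -0.88 ± 0.20 (adjusted p = 0.014, Cy3 -0.66, Cy5 0.22). Nfkb2 differed by -0.67 ± 0.15 (adjusted p = 0.016, Cy3 -0.17, Cy5 0.49), with the larger change in the Cy5 reference. Leaving out 72 h pool 1 ended the calls of Nfkbie (adjusted p = 0.18), Traf3 (0.087), Tirap (0.19), Nfkb1 (0.08) and Nfkb2 (0.084). With that pool counted, the call of Nfkbie was lost without any 1 of 5 pools and that of Tirap without any 1 of 4. Those of Traf3 and Nfkb2 were lost without any 1 of 3, and that of Nfkb1 also without 24 h pool 2. Jak3, a cytokine-receptor kinase, did not pass (0.61 ± 0.48, adjusted p = 0.46, Cy3 1.24, Cy5 0.64, 24 h pool 1 left out as an outlier). Timp2, an inhibitor of metalloproteinases, had 0.98, 0.96 and 0.82 at 24 h and 2.38, 2.52 and 2.03 at 72 h, a difference of 1.39 ± 0.31 (adjusted p = 0.013, Cy3 2.17, Cy5 0.78), while 2 other Timp2 probes gave 0.34 and -0.19, not called. The call of Timp2 was lost without 72 h pool 1 (adjusted p = 0.065) or 24 h pool 3, and its Cy3 and Cy5 changes were both called.

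Antigen presentation genes were lower where they differed, in 4 of 16 measured genes, all 4 called in Cy3 as well, with a median of -0.47. Among all genes 6.80% were called lower and 2.94% also in Cy3. B2m, the light chain of MHC class I, had log ratios of -0.82, -0.97 and -0.79 at 24 h and -2.10, -1.87 and -2.08 at 72 h, a difference of -1.16 ± 0.22 (adjusted p = 0.006, Cy3 -0.95, Cy5 0.20). H2-Ab1, the class II β chain, which has near-identical relatives, was at -1.21, -0.85 and -0.98 and then at -2.15, -1.82 and -2.08, a difference of -1.0 ± 0.20 (adjusted p = 0.0073, Cy3 -0.87, Cy5 0.13). Psme2, a subunit of the interferon-induced proteasome activator, differed by -1.21 ± 0.26 (adjusted p = 0.011, Cy3 -1.52, Cy5 -0.31). The differences of H2-Aa (0.0046, Cy3 0.11, Cy5 0.10) and H2-Eb1 (0.39, Cy3 0.21, Cy5 -0.18), other class II chains, did not pass. The calls of Cd74, B2m and H2-Ab1 held with any 1 pool left out and that of Psme2 was lost without 72 h pool 1 (adjusted p = 0.067) or 72 h pool 3.

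Of the 40 proteasome and ubiquitin genes limma called none, and 2 had an unadjusted p under 0.05, the proteasome subunits Psmc4 (-0.52 ± 0.19, adjusted p = 0.089, Cy3 -0.48, Cy5 0.044) and Psmb4 (-0.54 ± 0.22, adjusted p = 0.12, Cy3 -0.69, Cy5 -0.15). Their median of -0.033 stood beside 0.029 for 57 cytosolic ribosomal proteins, of which Rpl27 alone was called, at 0.56 ± 0.16 (adjusted p = 0.039, Cy3 0.30, Cy5 -0.26), with a second probe at -0.23. The call of Rpl27 was lost without any 1 of 5 pools (adjusted p up to 0.14). Of 21 metallothionein and antioxidant genes 3 were lower and 1 higher, where 6.80% and 4.76% of all genes were. Gpx2, the glutathione peroxidase of the gut epithelium, differed by -1.12 ± 0.32 (adjusted p = 0.037, Cy3 -1.33, Cy5 -0.22), Gstp1, a glutathione transferase named in the files after its near-identical neighbour Gstp2, by -1.20 ± 0.23 (adjusted p = 0.0076, Cy3 -1.03, Cy5 0.17), Txn1, thioredoxin, by -0.68 ± 0.18 (adjusted p = 0.029, Cy3 -0.22, Cy5 0.46) without 72 h pool 1, an outlier spot, and Nqo1, a quinone reductase and target of NRF2, by 0.75 ± 0.22 (adjusted p = 0.04, Cy3 0.76, Cy5 0.0098). Metallothionein Mt1, saturated on 2 of the arrays, was not called, with 2.02, 2.24 and 2.04 at 24 h, 1.88, 2.15 and 1.83 at 72 h and a difference of -0.15 ± 0.28 (adjusted p = 0.78, Cy3 0.37, Cy5 0.53). Among 31 lysosome and autophagy genes, Gabarapl2, of the autophagosome, differed by -1.06 ± 0.19 (adjusted p = 0.0041, Cy3 -0.91, Cy5 0.15), Ctsb, cathepsin B, differed by -0.76 ± 0.18 (adjusted p = 0.018, Cy3 -0.73, Cy5 0.033), with 2 dimmer probes not called, and Hexa, of ganglioside breakdown, by 0.83 ± 0.22 (adjusted p = 0.029, Cy3 1.57, Cy5 0.74). The calls of Gstp1 and Gabarapl2 held with any 1 pool left out, while Gpx2, Txn1, Nqo1 and Hexa each lost theirs whichever pool was left out (adjusted p up to 0.16, 0.14, 0.15 and 0.099), and Ctsb without any 1 of 4 pools (adjusted p up to 0.091).

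**Figure D5:**
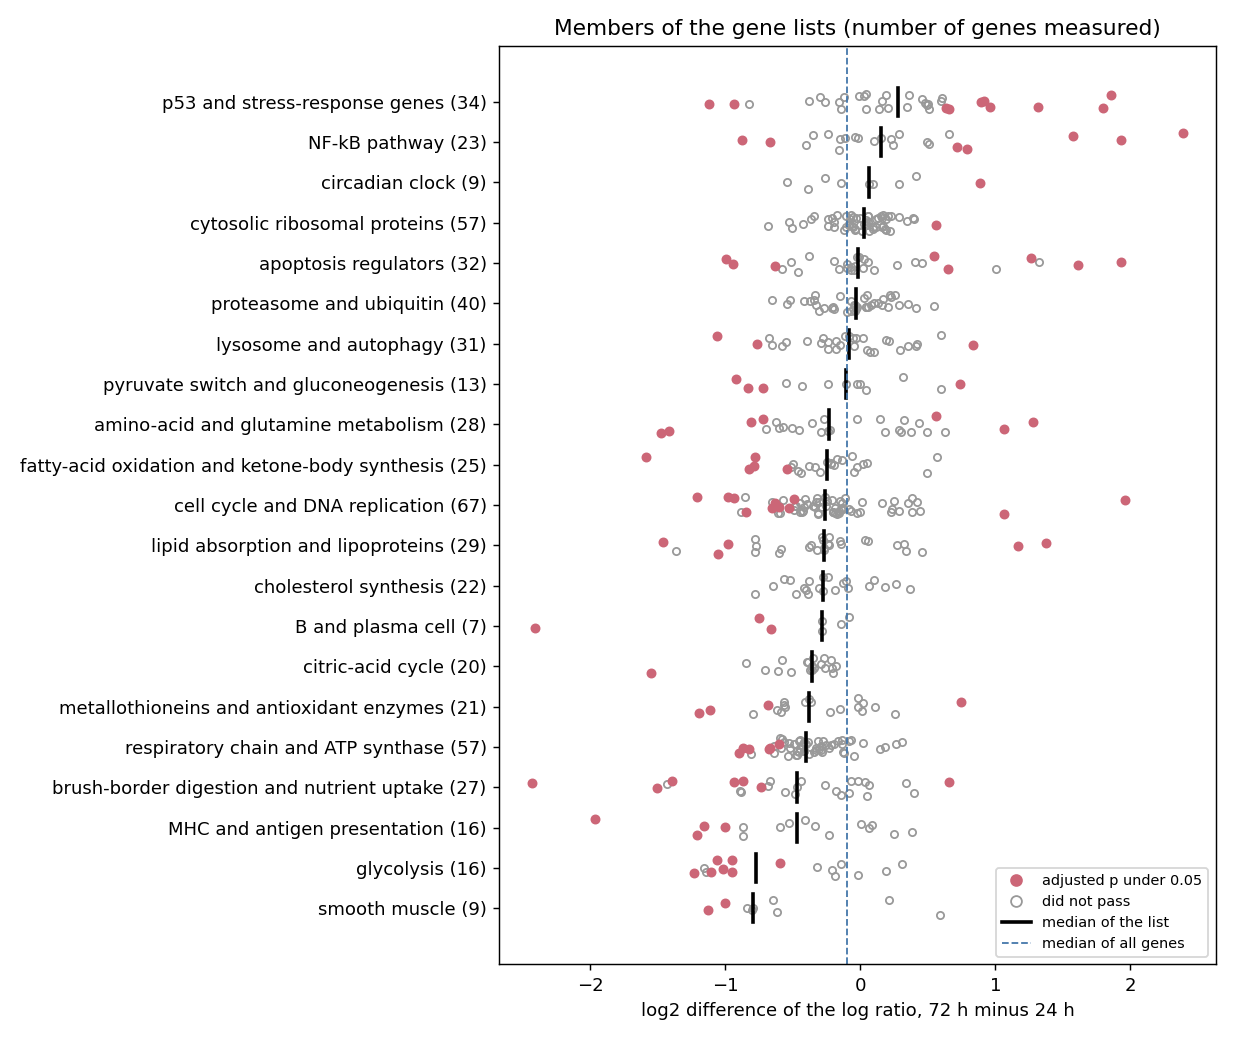
Difference of the log ratio, 72 h minus 24 h, of each measured gene of the lists (number of genes in parentheses), with called genes filled, others open, and a bar at the median of each list; the dashed line is the median of all genes, -0.10. Of the lists drawn, those with few measured genes being left out, smooth muscle and glycolysis have the lowest medians and the p53 and stress-response genes the highest.

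Of the circadian clock, 1 gene of 9 measured was called, higher, as were 4.76% of all genes. Arntl, which encodes the activator BMAL1 of the circadian clock, had log ratios of 0.32, 0.32 and 0.46 at 24 h and 1.16, 1.50 and 1.08 at 72 h. All pools of 72 h were higher, with a difference of 0.89 ± 0.16 (adjusted p = 0.004, Cy3 1.36, Cy5 0.47), and 72 h exceeded fed by 1.45 (adjusted p = 1.6e-04). Its partners and repressors did not pass: Clock was at -0.15 (Cy3 0.42, Cy5 0.57), Npas2 at 0.42 (Cy3 0.79, Cy5 0.37), Cry1 at -0.26 (Cy3 -0.073, Cy5 0.19) and Cry2 at 0.093 (Cy3 0.71, Cy5 0.61). The call of Arntl held with any 1 pool left out.

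Markers of the cell types of the gut wall were checked, few of which were measured here. Their calls stand beside 4.76% of all genes called higher and 6.80% lower. Of 10 enterocyte markers 3 were measured, of which Vil1 was called lower, and Lct with its single 72 h pool, neither of them in both the log ratio and Cy3. Of 3 measured goblet cell markers, Agr2 differed by -1.13 ± 0.24 (adjusted p = 0.0099, Cy3 -1.15, Cy5 -0.025) and Fcgbp by -0.73 ± 0.20 (adjusted p = 0.035, Cy3 -1.07, Cy5 -0.34). From fed, Fcgbp differed by 0.74 at 24 h (adjusted p = 0.035) and by 0.0088 at 72 h (adjusted p = 0.98). Agr2 differed from fed by -0.32 at 24 h (adjusted p = 0.41) and by -1.45 at 72 h (adjusted p = 0.0019). The 9 measured smooth muscle markers ran from -1.13 to 0.59 with a median of -0.80, and 2 were called lower, the myosin light chain Myl9 (-1.13 ± 0.26, adjusted p = 0.017, Cy3 -1.17, Cy5 -0.042) and smoothelin, Smtn (-1.0 ± 0.25, adjusted p = 0.023, Cy3 -0.59, Cy5 0.41). Desmin, Des, differed by -0.61 ± 0.37 (adjusted p = 0.32, Cy3 -0.64, Cy5 -0.028). At 72 h the median difference of the 9 from fed was 0.125, and 5 had the sign of their change from 24 h. From fed, Smtn differed by 1.12 at 24 h (adjusted p = 0.016) and by 0.125 at 72 h (adjusted p = 0.805). Myl9 did so by 0.22 (adjusted p = 0.67) and -0.91 (adjusted p = 0.067), and Des by 1.99 (adjusted p = 0.0072) and 1.37 (adjusted p = 0.03). The mean log ratio of the list was 0.408, 0.493 and 0.321 in the 24 h pools and -0.186, 0.0063 and -0.272 in the 72 h pools, and its median Cy3 and Cy5 changes were -0.59 and -0.028. Of 7 measured B and plasma cell markers 3 were lower: Jchain, the μ heavy chain Ighm (-0.75 ± 0.18, adjusted p = 0.018, Cy3 -0.33, Cy5 0.42) and the coactivator Pou2af1 (-0.66 ± 0.19, adjusted p = 0.037, Cy3 -0.36, Cy5 0.30). Averaged over the 7, the log ratio lay between -0.3 and -0.196 in the 24 h pools and between -1.03 and -0.811 in the 72 h pools. The median difference of the 7 was -0.28, with -0.02 in Cy3 and 0.27 in Cy5, and only Jchain was also called in Cy3. Averaged over the 3 goblet cell markers, it lay between 0.0519 and 0.571 and then between -0.611 and -0.367. The part of these shifts in the gene groups above was not tested. None of the measured markers of T cells, enteroendocrine cells, erythroid cells, adipose tissue, Paneth cells or exocrine pancreas was called. Cd3e and Cd2 of T cells gave 0.42 (Cy3 0.52, Cy5 0.092) and 0.42 (Cy3 0.39, Cy5 -0.03), and Chga and Nts of enteroendocrine cells 0.25 (Cy3 0.52, Cy5 0.26) and -0.14 (Cy3 -0.24, Cy5 -0.10). The erythroid genes Hbb-bh1 and Klf1 gave -0.50 (Cy3 -0.38, Cy5 0.12) and -0.50 (Cy3 -0.91, Cy5 -0.41), the adipose genes Fabp4 and Slc2a4 -0.77 (Cy3 -0.80, Cy5 -0.027) and 0.27 (Cy3 -0.53, Cy5 -0.81), and the Paneth cell gene Mmp7 0.32 (Cy3 0.41, Cy5 0.10). Cpa1, a pancreatic carboxypeptidase, ran from -1.4 to 1.36 in the 24 h pools and from -1.44 to -0.0706 in the 72 h pools, with a difference of -1.23 ± 0.70 (adjusted p = 0.29, Cy3 -0.80, Cy5 0.43). Csf1r of macrophages differed by -0.51 ± 0.15 (adjusted p = 0.042, Cy3 -0.45, Cy5 0.062). The calls of Agr2, Myl9, Smtn, Ighm, Pou2af1, Fcgbp and Csf1r were each lost without 72 h pool 1, for Agr2 without that pool alone. Those of Myl9 and Smtn were lost without any 1 of 4 pools and that of Ighm without any 1 of 3. Pou2af1, Fcgbp and Csf1r lost theirs whichever pool was left out. The highest adjusted p with 1 pool left out ran from 0.065 for Agr2 to 0.15 for Csf1r.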

How the data were processed

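Total RNA from whole small intestine had been hybridized to Agilent 60-mer 2-colour arrays, 3 arrays per time point and 12 in all. The deposited scanner files hold, per the file headers, median spot and local background intensities of both channels and spot flags, as the authors' image software wrote them without normalization, and a log10 ratio that was used as an alternative. Intensities were background-corrected with normexp (offset 50), quantile-normalized over all 24 channels and taken as log2. Spots flagged as outliers were left out, control and retired spots were not analysed, and spots of 1 probe were averaged. A linear model over the 12 arrays (limma 3.58.1, R 4.3.3) gave 72 h minus 24 h, with Benjamini-Hochberg adjustment over all probes. The precision is limited by 3 pools per time point. Symbols follow RefSeq GRCm38.p6 where the gene number or accession matched (9946 and 136 probes) and the files otherwise.

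Genes were named by a rule: in each direction, the 12 of greatest difference whose probe was called both in the log ratio and in Cy3, had separate pools, a smaller Cy5 change and signal above background, then key genes of the themes of the study, and up to 6 called members of each list (the 2 of lowest p where none was called). Some further list members, such as Pfkm, Junb, Nfkb2 and the clock genes, were named after their values were seen. A few members are not reported here. No probe that was dim at only 1 time point met the same criteria. Members and lists were chosen with earlier results of these data known. The steps were tested on simulated data. Alternatives covered normalization, background, filters, variance, a replicate block and each pool left out.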

Additional observations from a re-analysis of the deposited data

How the results depend on the processing

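Of the 2150 calls (1191 higher, 959 lower, 918 also called in Cy3), none was called in the opposite direction under another normalization, background correction, filter, block or with a pool left out, and 8 were in the Cy3 channel alone. Counts moved by more than 1.5 times under 5 settings beside leaving out pools, and that of Cy5 under 1 more. Median centring in place of quantile normalization left 1253 calls (744 higher, 509 lower, 430 also in Cy3). Quantile normalization over the 24 h and 72 h channels alone gave 4622 (2274 higher, 2348 lower, 2107 also in Cy3), and a fit of the 6 arrays alone 4489 (2229 higher, 2260 lower, 2038 also in Cy3). The Cy3 channel alone gave 3335, 1553 of them lower. Without moderation of the variance 1390 were called, 571 of them lower and 401 also in Cy3. Without background correction 1762 probes were called in Cy5, in place of 2790. With each pool left out in turn, the calls ranged from 551 (without 72 h pool 1) to 1393, those higher from 356 to 851, those lower from 195 to 542, those also in Cy3 from 205 to 641, and those in Cy5 from 1080 to 1791. The cause of these shifts was not tested, and a smaller number of pools leaves fewer degrees of freedom by construction.

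The replicate numbers of the labels were not taken as pairs: deviations of same-numbered pools correlated at 0.112, 0.128 and -0.0391. A replicate block gave 1621 calls (947 higher, 674 lower). Leaving out the 79 probes that share the profile of Rxra, a choice made after seeing the data, gave 2079 (1128 higher, 951 lower). The Feature Extraction log ratio, which the value table repeats, gave 2428.

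Among the 158 named genes, those that turned direction had not been called, apart from Acot1. The Cy3 channel alone gave 0.132 for Acot1, -0.428 for Insig1, 0.372 for Mt1, 0.421 for Clock and -0.531 for Slc2a4. Median centring gave 0.034 for Acadvl, -0.021 for Insig1 and 0.029 for Mt1. The Feature Extraction log ratio and the value table both gave -0.033 for Insig1, 0.106 for Mt1, -0.052 for Cry2 and -0.071 for H2-Aa. Loess gave 0.194 for Mt1 and -0.013 for H2-Aa, separate quantile normalization of Cy3 and Cy5 0.103 for Mt1 and -0.006 for H2-Aa, no background correction -0.056 for H2-Aa, and plain subtraction -0.019 for Cry2. With each pool left out in turn, Insig1 ranged from -0.043 to 0.174, Nts from -0.219 to 0, Clock from -0.311 to 0.041, Cry1 from -0.432 to 0, Cry2 from -0.066 to 0.226 and H2-Aa from -0.08 to 0.059.

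On the 24 h and 72 h arrays Cy5 signals stood at 1.65 to 2.09 times background at the array medians, which limits ratios of dim probes. File format, lamp and fasting time cannot be told apart between 24 and 72 h.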
